A study of Mus musculus with 7 samples.

Results

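Cytochrome P450 genes encode heme enzymes that insert 1 oxygen atom into fatty acids, sterols, steroids, vitamins and foreign chemicals. They were followed here in C3H10T1/2 cells, a mouse embryo fibroblast line labelled as mesenchymal stem cells, because it can be driven towards bone, fat or cartilage. The members are all genes of the count table whose mouse symbol has the form Cyp, digits, letters, digits, with 1 further matching gene left out. They number 93 of 54532 annotated features. The rule uses symbols and no measured value, but it was set with earlier results of these data known. The control group was 3 cultures without inducer. No day is given for them, so whether they match the OB cultures in time is not known. The OB group was 4 cultures in which osteoblast differentiation was started for 3 days with the glucocorticoid dexamethasone, β-glycerophosphate at 10 mM and L-ascorbic acid at 50 μM. All cultures grew in MEM with 10% FBS, and all derive from 1 line, so the spread is between cultures and not between animals.

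Most P450 enzymes sit in the endoplasmic reticulum and take electrons from the reductase Por, sometimes through cytochrome b5 (Cyb5a). A smaller mitochondrial group, which includes Cyp27a1, Cyp27b1, Cyp24a1 and Cyp11a1, takes them from ferredoxin (Fdx1). Families 1 to 3 are known for the metabolism of foreign chemicals, family 4 for hydroxylation of fatty acids, and the higher-numbered families mostly for single steps in the handling of sterols, bile acids, vitamin D and retinoic acid. In bone-forming cells the best known are Cyp27b1 and Cyp24a1, which make and degrade active vitamin D, and the Cyp26 enzymes, which degrade retinoic acid.

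Library totals ranged from 21213328 to 46530017 counted fragments, so that 3 fragments corresponded to 0.0645 to 0.141 CPM (counts scaled to library size) in a library. The descriptions of control 1 and OB 1 begin with C1, those of control 2 and OB 2 with C2, and those of control 3, OB 3 and OB 4 carry no such number. What these marks stand for is not given, and differences within each of these 3 label sets are shown beside the pooled ones. All 8 fibroblast markers were detected, with a summed level of 35093 to 47320 CPM in control and 25725 to 35657 CPM in OB. Of these only Pdgfra passed the test, higher in OB by 1.54 (log2; adjusted p = 0.0182, edgeR). Hepatocyte markers, of interest because liver is the main site of many P450 genes, summed to 0.0852 to 0.159 CPM in control and 0 to 1.53 CPM in OB, where albumin (Alb) reached 0.834 CPM in OB 3 and 1.28 CPM in OB 4. Markers of epithelial cells summed to 1.31 to 3.53 CPM in control and 0.371 to 1.34 CPM in OB, those of endothelial cells to 2.34 to 9.43 and 3.34 to 8.03 CPM, and those of macrophages and blood to 2.42 to 3.36 and 2.05 to 3.52 CPM. Of these lists 2, 1 and 2 genes had 0 counts in every library. Adipocyte markers summed to 7.86 to 33.2 CPM in control and 48.7 to 106 CPM in OB, with the fatty acid binding protein Fabp4 higher in OB by 2.96 ± 0.25 (log2, SE; adjusted p = 0.00188, edgeR). The part of any of these cell types in the P450 values was not tested.

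Of the 93 P450 genes, 49 had at least 1 fragment in some library and 44 had none. Only 17, or 18.3%, were abundant enough for the test between groups, which asked for about 10 fragments in a library of median size, 0.389 CPM, in at least 3 libraries. A further 12 had 10 or more fragments in all but were not tested, and 20 had 1 to 9, of which 9 rested on a single fragment. Fragments from every library were seen for 21 members. The number of members detected per library was 30 to 32 in 6 libraries and 37 in OB 4. OB 4 was also the library with the most members seen nowhere else, 6 genes with 8 fragments in all: Cyp2c50, Cyp2c29, Cyp2c65, Cyp2j5, Cyp2w1 and Cyp3a11. That library had the highest Alb level as well, and the part of RNA from other sources in these fragments was not tested.

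Most genes of the largest family were at or near 0. Of 49 Cyp2 genes, 25 had no fragment, 11 had fewer than 10, 6 had 10 or more without being tested and 7 were tested. None of the 15 Cyp2c genes, classical liver enzymes for drugs and arachidonic acid, was tested, and 10 of them had no fragment. All 4 Cyp2a genes were at 0. In the Cyp3a family, the main drug-metabolising group of liver and intestine, none of 7 was tested and 3 had no fragment. Family 4 was divided: all 5 Cyp4a genes, the fatty acid hydroxylases induced through Ppara in liver and kidney, were at 0, while 4 of 9 Cyp4f genes and Cyp4v3 were tested. The remaining tested members were Cyp1b1, Cyp20a1, Cyp27b1, Cyp39a1 and Cyp46a1. A gene at 0 in all 7 libraries together allows a level of up to 0.0136 CPM, which covers counting error only. Fragments with several alignments were not counted, and 19 of the 44 genes at 0 had more than 20% of their 50-base words in another gene as well, so low counts of such near-identical copies are uncertain. Among the tested members this share was at most 17.4%, in Cyp4f16, whose closest relative is Cyp4f37.

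**Figure D1:**
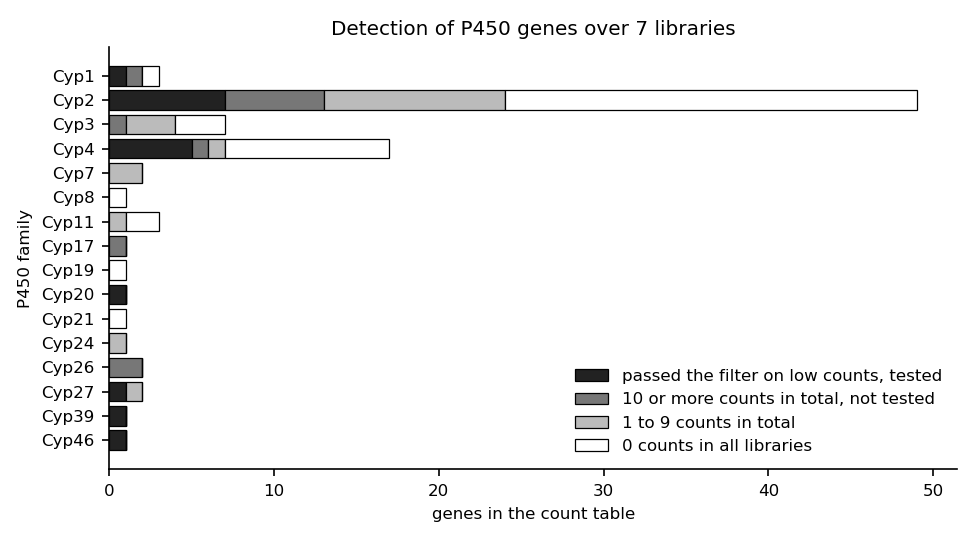
Number of P450 genes per family (horizontal axis, genes in the count table) by how well they were detected over 7 libraries: tested, 10 or more counts but not tested, 1 to 9 counts, and 0 counts. Cyp2 is the largest family with 49 genes, of which 25 are at 0 and 7 were tested.

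The enzymes of steroid hormone synthesis were at or near the floor. Of 6 such genes, 4 had no fragment: Cyp11b1 and Cyp11b2 for the last steps to corticosterone and aldosterone, Cyp19a1 (aromatase) and Cyp21a1 (the steroid 21-hydroxylase of the adrenal). Cyp11a1, the side-chain cleavage enzyme, had 2 fragments, both in OB 2, and Cyp17a1 had 6 in control and 5 in OB. Of 4 vitamin D genes, only Cyp27b1 was tested. Cyp2r1, a vitamin D hydroxylase of liver, had none, Cyp27a1, which acts on vitamin D and on cholesterol, had 5, and Cyp24a1 had 1, in control 3. Of the bile acid synthesis enzymes, Cyp7a1, the rate-limiting one, had 3 fragments, Cyp7b1 2 and Cyp8b1 0, while Cyp39a1 had 6616. The tested members on the sterol list were Cyp39a1 and Cyp46a1.

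Cyp1b1 made up most of the P450 signal. It acts on estradiol, retinoids and polycyclic aromatic hydrocarbons, is a target of the aryl hydrocarbon receptor Ahr, and is known as the main P450 of embryo fibroblasts. It lies on chromosome 17 from 79706953 to 79715041 on the minus strand (mm10, ENSMUSG00000024087). Its level was 1258, 1983 and 1251 CPM in control and 1548, 2418, 1161 and 996 CPM in OB. Control 2 and OB 2 were the highest of their groups and the ranges overlapped. Among the tested genes it ranked from 25 to 66 in control libraries and from 23 to 84 in OB libraries. Its share of all fragments assigned to the 93 members was 85.4 ± 2.68% (SD, n = 3) in control and 80.5 ± 4.27% (n = 4) in OB. The log2 difference of OB from control was 0.03 ± 0.32 (SE; adjusted p = 0.963, edgeR), and it was 0.30 in the C1 set, 0.29 in the C2 set and -0.22 in the set without a number.

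The close relative Cyp1a1, the textbook Ahr target, had 11 fragments in control and 8 in OB, and Cyp1a2 had none. The upstream stretches of Cyp1b1 and Cyp1a1 are shown because family 1 holds the most abundant member beside relatives with few or no fragments. Those of Cyp4v3 and Cyp2f2 are shown because these were the members that passed the test between groups. They are RefSeq sequence of GRCm38.p6, written 5′ to 3′ on the gene's strand and ending before its start, with the bases that overlap an annotated exon left out (53 for Cyp4v3 and 46 for Cyp2f2). Capitals mark the core of the Ahr response element, GCGTG, or its reverse complement CACGC.
Cyp1b1, chr17:79715062-79715311, minus strand: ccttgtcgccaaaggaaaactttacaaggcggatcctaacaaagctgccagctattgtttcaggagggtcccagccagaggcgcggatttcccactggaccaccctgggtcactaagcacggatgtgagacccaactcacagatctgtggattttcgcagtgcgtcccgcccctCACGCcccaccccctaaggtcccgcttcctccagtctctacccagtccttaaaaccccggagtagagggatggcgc
Cyp1a1, chr9:57697363-57697612, plus strand: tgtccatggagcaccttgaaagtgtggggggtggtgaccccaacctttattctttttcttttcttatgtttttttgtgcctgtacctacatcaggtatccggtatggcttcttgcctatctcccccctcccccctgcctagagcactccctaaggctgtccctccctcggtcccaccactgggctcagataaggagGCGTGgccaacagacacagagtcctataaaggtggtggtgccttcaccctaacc
Cyp4v3, chr8:45333217-45333413, minus strand: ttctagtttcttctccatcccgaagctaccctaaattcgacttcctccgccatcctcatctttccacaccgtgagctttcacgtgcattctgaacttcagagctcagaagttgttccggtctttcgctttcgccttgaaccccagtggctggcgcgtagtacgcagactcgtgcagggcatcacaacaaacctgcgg
Cyp2f2, chr7:27119705-27119908, plus strand: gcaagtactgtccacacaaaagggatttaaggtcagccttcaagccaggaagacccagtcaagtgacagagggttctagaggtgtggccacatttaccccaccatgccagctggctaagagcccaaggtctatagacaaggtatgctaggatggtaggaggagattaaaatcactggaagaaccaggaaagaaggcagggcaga
The core occurred 1 time in the 250 bases before Cyp1b1, 76 bases before the start and in reverse, and 1 time before Cyp1a1, 54 bases before the start. The Cyp4v3 window holds 1 core as well, 16 bases before the start in the stretch left out above, and the Cyp2f2 window holds none. On either strand, GCGTG is present in 28.3% of 32536 RefSeq windows of this length, so a match is common. The TATA element TATAAA, found in 12.3% of windows, occurred before Cyp1a1 and not before the other 3. The letters AGAACA, a half-site of the glucocorticoid receptor that dexamethasone activates, were in none of the 4 windows and in 16.0% of all.

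To compare genes with each other, levels were divided by exon length. In control cells Cyp1b1 stood at 292 ± 82.0 CPM per kb (SD, n = 3), followed by Cyp20a1, a P450 without an established substrate, at 30.7 ± 3.17. Cyp2j6 at 12.8 ± 4.41 and Cyp4f16 at 11.5 ± 0.55 came next, with overlapping ranges. Cyp4f13 at 7.87, Cyp4f17 at 7.16, Cyp39a1 at 7.11, Cyp4v3 at 3.99, Cyp2j9 at 2.44 and Cyp46a1 at 1.81 CPM per kb formed a run of neighbours whose ranges overlapped. The lowest tested members, from Cyp27b1 at 0.686 down to Cyp4f14 at 0.108 and Cyp2f2 at 0.029 CPM per kb, were separated from Cyp46a1 without overlap. In OB cells the order began with Cyp1b1 at 299 ± 124, Cyp20a1 at 28.5 and Cyp2j6 at 20.4 CPM per kb (n = 4), these 3 each clear of the next. Cyp4v3 moved from rank 8 in control to rank 4 in OB, at 12.0 ± 1.58 CPM per kb, with a range that overlapped that of Cyp39a1 at 11.3. Cyp2f2 moved from rank 17 to rank 14, at 0.431 CPM per kb.

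**Figure D2:**
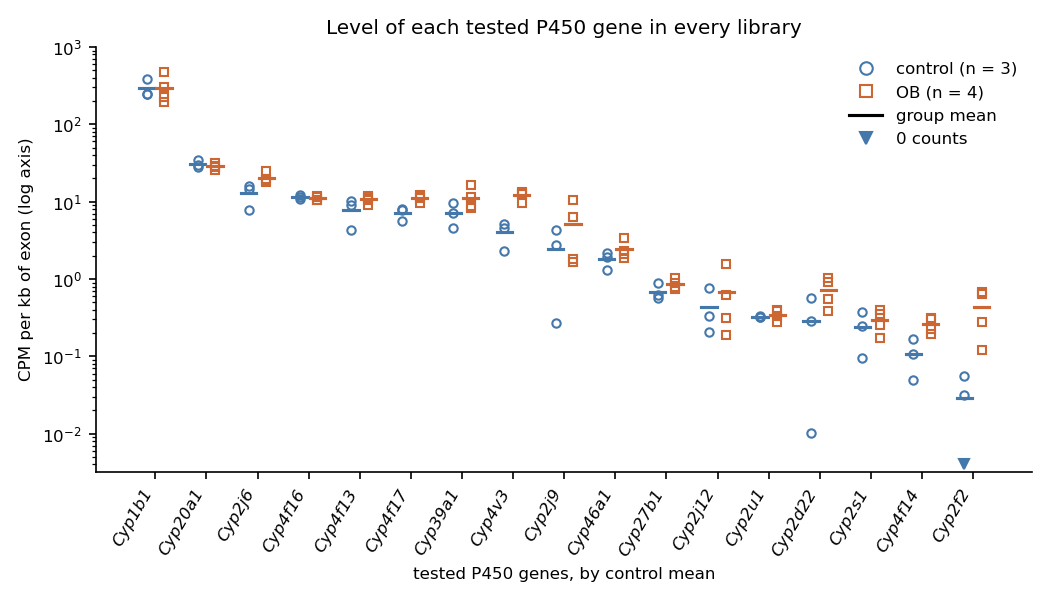
Level of the 17 tested P450 genes in each library, in CPM per kb of exon on a log axis, ordered by the control mean; each point is 1 library of the control or OB group. Cyp1b1 lies above all others in every library, and Cyp4v3 and Cyp2f2 have their OB points above their control points.

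Of the 17 tested members, 2 rose in OB, Cyp4v3 and Cyp2f2, none fell, and 15 did not pass the test (edgeR quasi-likelihood, Benjamini-Hochberg adjusted p under 0.05 over all 15441 tested genes). Over all tested genes 4.32% passed as higher and 3.72% as lower. The 2 of 17 make 11.8%, but Cyp2f2 was admitted to the test only by its OB level and could be called only as higher, so nothing is read from this share. At an unadjusted p under 0.05 (edgeR) there were 5 members higher, Cyp2f2 and Cyp4f14 among them, and 0 lower. The share of all tested genes at that level was not taken, so nothing is read from these counts. In 5 members every OB library lay above every control library, against 13.2% of all tested genes, and in 0 members every OB library lay below, against 12.3%. These 5 include Cyp2f2 and Cyp4f14, which reached the filter's level in 0 and 1 control libraries. The fold change was above 0 on the log2 scale in 15 members and below 0 in 2, with a median of 0.64 against -0.004 over all tested genes. Cyp2f2 and Cyp4f14 are among those above 0 and also enter the median. The share of all tested genes above 0 was not taken, so nothing is read from these values. Control 3 was the lowest control library in 14 of the 17 members and in 44.4% of all tested genes, and the lowest of all 7 in 10 members and in 30.5% of tested genes. The part of this library in the median was not tested.

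Cyp4v3 is the mouse counterpart of the human fatty acid hydroxylase CYP4V2, whose loss causes a crystalline degeneration of the retina. It lies on chromosome 8 from 45304944 to 45333216 on the minus strand (mm10, ENSMUSG00000079057), and 8.22% of its exon bases are shared with Gm45753, which had 0 counts. Its level was 17.3, 19.5 and 8.81 CPM in control and 48.3, 47.8, 50.2 and 36.9 CPM in OB. The lowest OB library, OB 4, lay well above the highest control library, and control 3 was the lowest. The mean rose from 15.2 ± 5.66 CPM (SD, n = 3) to 45.8 ± 6.02 CPM (n = 4), 3.00-fold, a log2 change of 1.59 ± 0.27 (SE; adjusted p = 0.0163, edgeR). The difference was 1.48, 1.29 and 2.28 (log2) in the C1 set, the C2 set and the set without a number. Without OB 1 the adjusted p was 0.0536.

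Cyp2f2 is an enzyme of lung club cells that activates naphthalene. It lies on chromosome 7 from 27119909 to 27133660 on the plus strand (mm10, ENSMUSG00000052974), next to the Cyp2a and Cyp2b genes, and 13.5% of its exon bases are shared with Gm15883 on the opposite strand, which had 1 fragment, in OB 3. Its fragments numbered 3, 4 and 0 in control and 32, 59, 12 and 6 in OB, or 0.0639, 0.114 and 0 CPM against 1.30, 1.39, 0.556 and 0.248 CPM. The groups did not overlap, but OB 1 and OB 2 carried most of the OB fragments, and OB 4 was low. The log2 change was 3.72 ± 0.84 (SE; adjusted p = 0.0368, edgeR), and the ratio of the pooled levels was 14.8, with a 95% counting interval of 6.94 to 37.7. The gene passed the filter on low counts in 0 control and 3 OB libraries, so that it could enter the test only because it was high in OB. The call was lost without control 1 (adjusted p = 0.0892), control 2 (0.0908) or control 3 (0.0646), edgeR in each case, and without OB 1, OB 2 or OB 3 the gene fell below the filter and had no value. At 0.873 ± 0.559 CPM in OB (n = 4) it remained among the least abundant tested members.

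**Figure D3:**
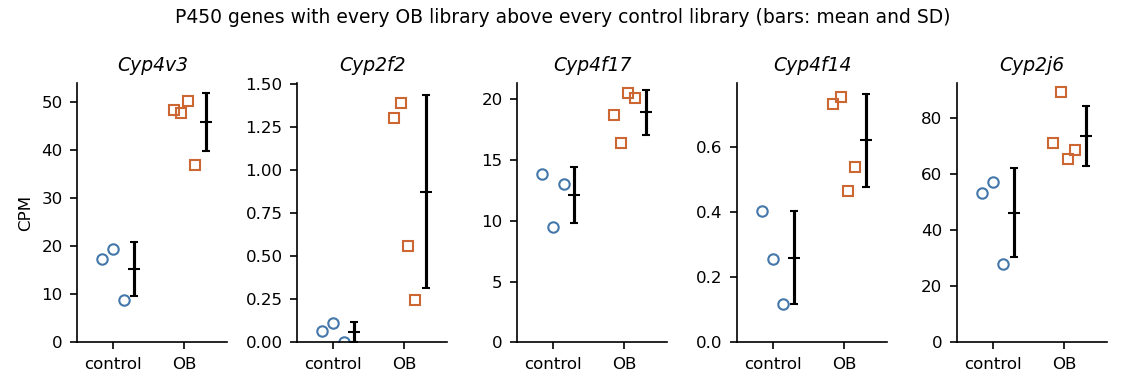
CPM in each control and OB library of the 5 P450 genes whose OB libraries all lie above their control libraries, with bars for the mean and SD. Cyp4v3 and Cyp2f2 passed the test, and Cyp4f17, Cyp4f14 and Cyp2j6 did not.

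Cyp4f17, Cyp4f14 and Cyp2j6 also had every OB library above every control library without passing the test. With the label sets as a block, edgeR called all 3 higher (adjusted p = 0.0229, 0.0492 and 0.0251), as it did Cyp4v3, Cyp2f2, Cyp2j9 and Cyp39a1. That makes 7 of 17 members, in a fit that called 9.28% of all tested genes higher and 8.13% lower. Cyp2f2, admitted to the test only by its OB level, is among the 7, so nothing is read from this share. Cyp4f genes encode hydroxylases of leukotrienes and other fatty acids, and the 4 tested ones lie close together on chromosome 17. Cyp4f17 measured 13.8, 9.51 and 13.1 CPM in control and 18.7, 16.4, 20.5 and 20.1 CPM in OB, a log2 difference of 0.64 ± 0.17 (SE; adjusted p = 0.0604, edgeR). Its adjusted p was 0.0118 by DESeq2 and 0.0226 by limma-voom with quality weights, so its call depends on the tool as well as on the block. Cyp4f14, a leukotriene B hydroxylase, measured 0.404, 0.256 and 0.119 CPM in control and 0.732, 0.752, 0.463 and 0.538 CPM in OB (log2 difference 1.19 ± 0.43, SE; adjusted p = 0.129, edgeR). It reached the filter's level in 1 control and 4 OB libraries. Cyp4f13 (26.2 ± 10.6 CPM in control, 35.6 ± 4.26 in OB, adjusted p = 0.367, edgeR) and Cyp4f16 (34.6 ± 1.66 and 33.6 ± 2.16 CPM, adjusted p = 0.821, edgeR) had overlapping groups. The 4 Cyp4f genes therefore differed in the size of the difference, from -0.04 in Cyp4f16 to 1.19 in Cyp4f14 (log2), though these differences between genes were not tested.

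Cyp2j genes, which lie together on chromosome 4, encode epoxygenases of arachidonic acid. Cyp2j6 measured 53.3, 57.3 and 28.0 CPM in control and 71.2, 89.5, 65.3 and 68.6 CPM in OB, a log2 difference of 0.67 ± 0.24 (SE; adjusted p = 0.135, edgeR). Cyp2j9, the member with the largest SE, measured 9.11, 14.4 and 0.913 CPM in control and 21.3, 34.8, 6.07 and 5.54 CPM in OB. Control 3, OB 3 and OB 4, the libraries without a C number, were all low, and the pooled log2 difference of 1.05 ± 0.91 (SE; adjusted p = 0.511, edgeR) did not pass. Within the label sets the difference was 1.22, 1.27 and 2.59 (log2). Cyp2j12, a gene of the same cluster, measured 0.848 ± 0.585 CPM in control and 1.31 ± 1.20 CPM in OB (adjusted p = 0.632, edgeR). Of the other Cyp2j genes, Cyp2j7 and Cyp2j11 were at 0 and Cyp2j5, Cyp2j8 and Cyp2j13 had 1, 10 and 7 fragments.

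Same-numbered cultures deviated together for numbers 2 and 3 (r = 0.52 and 0.40). OB 1 correlated with control 1 (0.17) less than with control 2 (0.21), and OB 4 stands alone in its block. With the replicate number as a block in edgeR, the members that rose numbered 4 of 17. That compares with 5.38% of all tested genes higher and 3.38% lower. Cyp2f2, admitted to the test only by its OB level, is among the 4, so nothing is read from this share. Cyp2j9, with a log2 difference of 1.63 (adjusted p = 0.0393), and Cyp39a1, with 0.80 (adjusted p = 0.0199), joined Cyp4v3 (0.0187) and Cyp2f2 (0.0147), all from the blocked edgeR fit. Cyp39a1, an oxysterol hydroxylase of bile acid synthesis, measured 21.6, 29.4 and 14.1 CPM in control and 35.2, 50.6, 26.8 and 25.6 CPM in OB. OB 3 and OB 4 lay below control 2, so the groups overlapped, and without the block its difference was 0.67 ± 0.31 (log2, SE; adjusted p = 0.227, edgeR). Within the label sets it was 0.70, 0.78 and 0.89 (log2). The second sterol enzyme, Cyp46a1, which hydroxylates cholesterol in neurons, measured 5.95 ± 1.49 CPM in control and 7.95 ± 2.13 CPM in OB (adjusted p = 0.376, edgeR).

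Cyp27b1, which makes active vitamin D, measured 2.26, 1.45 and 1.59 CPM in control and 2.03, 2.63, 1.90 and 2.32 CPM in OB. The groups overlapped, and the log2 difference was 0.33 ± 0.25 (SE; adjusted p = 0.460, edgeR). Within the label sets it was -0.15, 0.83 and 0.39 (log2). Cyp2d22, a drug-metabolising enzyme, ranged from 0.0397 CPM (1 fragment) in control 3 to 4.04 CPM in OB 2. Its log2 difference of 1.30 ± 0.82 (SE) had an adjusted p of 0.361 (edgeR), and within the label sets it was 1.61, 0.85 and 4.18. Cyp20a1 measured 70.2 ± 7.25 CPM in control and 65.2 ± 5.61 CPM in OB (log2 difference -0.11 ± 0.11, SE; adjusted p = 0.590, edgeR). Cyp2u1, a fatty acid hydroxylase, measured 1.71 ± 0.053 and 1.81 ± 0.282 CPM (adjusted p = 0.844, edgeR). Cyp2s1, which acts on retinoids and lipid peroxides, measured 1.19 ± 0.699 and 1.45 ± 0.492 CPM (adjusted p = 0.786, edgeR), and its sign differed between label sets, at -1.08, 0.02 and 1.82 (log2). Of its exon bases, 5.27% are shared with Gm26707 on the opposite strand, and fragments that overlapped both were not counted.

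**Figure D4:**
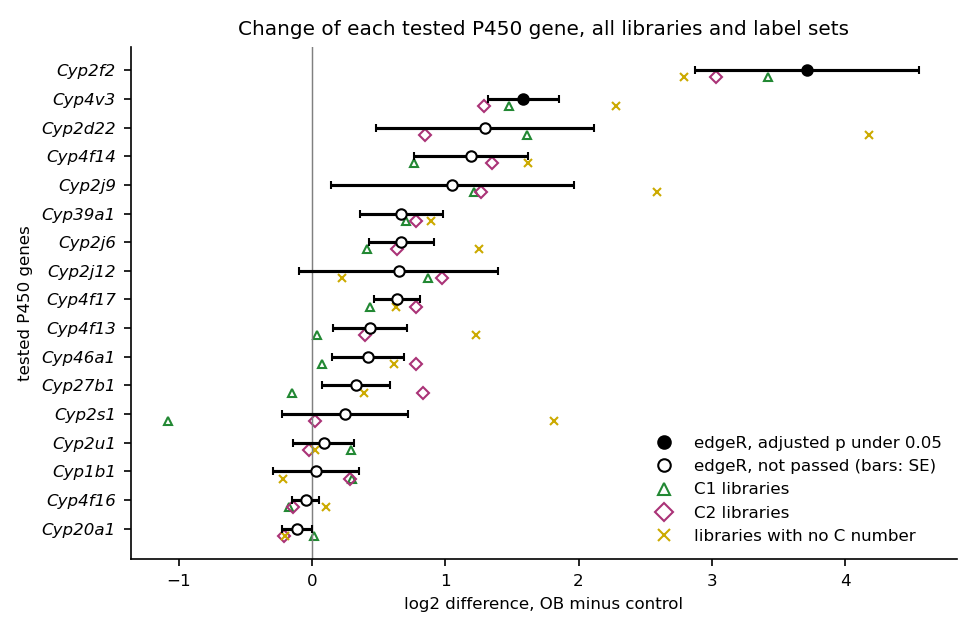
Difference of OB from control (log2) for each tested P450 gene: the fitted value over all libraries with its SE, and the differences within the C1, C2 and unnumbered label sets. Cyp4v3 and Cyp2f2 are among the genes that lie above 0 in every set. Cyp1b1, Cyp2s1, Cyp20a1, Cyp4f16, Cyp27b1 and Cyp2u1 change sign between sets.

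Within the label sets, 14 of the 17 members were higher in OB in the C1 set, 14 in the C2 set and 15 in the set without a number. The median difference was 0.42, 0.78 and 0.89 (log2), against -0.002, 0.0003 and 0.022 over all tested genes. In all 3 sets 11 members were higher, among them Cyp2f2 and Cyp4f14, and 0 were lower. Cyp2f2 was admitted only by its OB level, and Cyp4f14 reached the filter's level in 1 control library. Both also enter the medians. The set without a number has control 3 as its only control. The shares of all tested genes were not taken for these counts, so nothing is read from them. Summed over all members, the P450 level was 1526, 2262 and 1452 CPM in control and 1896, 2815, 1486 and 1307 CPM in OB, which overlap and follow Cyp1b1. Without Cyp1b1 the sum was 268, 279 and 201 CPM in control and 348, 396, 325 and 311 CPM in OB, so that every OB library lay above every control library. Cyp2j6, Cyp4v3 and Cyp39a1 contributed most of that difference of the means, 249 ± 42.4 against 345 ± 37.4 CPM.

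The 12 members with 10 or more fragments that did not enter the test are given by their pooled counts. Cyp3a13, a Cyp3a enzyme also found outside the liver, had 10, 12 and 7 fragments in control and 2, 0, 1 and 2 in OB. Its pooled level was 6.10 times higher in control (95% counting interval 2.34 to 20.2). No adjusted test called it, with an adjusted p of 0.103 in edgeR without the filter and 0.0748 in DESeq2. Cyp2ab1, of unknown function, had 36 fragments in control and 14 in OB, 2.71 times higher in control (1.42 to 5.43). Cyp26a1, which degrades retinoic acid, had 5 in control and 20 in OB, 3.80 times higher in OB (1.38 to 13.0; adjusted p = 0.275, edgeR without the filter), while its relative Cyp26c1 had 17 and 11. Cyp2b13, a female-predominant liver gene, had 1, 4 and 0 fragments in control and 1, 0, 11 and 5 in OB, so that its OB fragments came mainly from OB 3 and OB 4, the libraries with Alb. The remaining 7 were Cyp2t4 with 26 and 49 fragments in control and OB, Cyp2c23 with 37 and 37, Cyp1a1, Cyp17a1, Cyp2d26 with 3 and 9, Cyp4b1 with 9 and 2, and Cyp2j8 with 7 and 3. These intervals cover counting error only, not the spread between cultures.

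The genes that serve the P450 enzymes are read against the same 4.32% higher and 3.72% lower of all tested genes. Of 9 electron donors and partners, 2 rose and 0 fell, with a median log2 difference of -0.03. Cyb5a rose from 75.8 ± 13.2 CPM (SD, n = 3) to 206 ± 78.3 CPM (n = 4), by 1.44 ± 0.31 (log2, SE; adjusted p = 0.0305, edgeR), with 255, 290, 148 and 131 CPM in OB 1 to OB 4. Its call was lost when any of control 1, control 2, control 3, OB 1 or OB 2 was left out, with adjusted p up to 0.0879. Fdx1, the mitochondrial donor, rose from 23.1 ± 3.51 to 40.9 ± 1.70 CPM, by 0.83 ± 0.13 (adjusted p = 0.0127, edgeR), and its adjusted p was 0.0519 without control 2. Por, chosen for its role, measured 86.4 ± 1.52 and 85.4 ± 17.1 CPM (adjusted p = 0.958, edgeR). Of 12 genes of heme synthesis and turnover 0 rose and 2 fell, with a median of 0.03. Cpox, which oxidises coproporphyrinogen, fell from 75.7 ± 24.8 to 38.3 ± 2.64 CPM (log2 change -0.98 ± 0.20; adjusted p = 0.0274, edgeR). Alad, an early enzyme of the pathway, fell from 63.5 ± 9.44 to 44.5 ± 1.88 CPM (log2 change -0.51 ± 0.12; adjusted p = 0.0363, edgeR, and 0.0845 with the replicate block). Without control 2 or any single OB library neither passed, with adjusted p up to 0.0883 for Cpox and 0.100 for Alad. Over 16 alternative fits the call was lost in 6 for Cpox and in 7 for Alad.

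Of 11 receptors and partners that control P450 genes, 8 were tested, 1 rose and 0 fell, with a median log2 difference of 0.07. Vdr, the vitamin D receptor, rose from 69.2, 69.9 and 54.1 CPM in control to 153, 143, 143 and 158 CPM in OB, by 1.21 ± 0.12 (log2, SE; adjusted p = 0.00379, edgeR). Its target Cyp24a1 had 1 fragment in all, in control. Rxra, the shared partner of nuclear receptors, measured 114 ± 19.2 and 166 ± 63.4 CPM (adjusted p = 0.275, edgeR), and Arnt, the partner of Ahr, 97.2 ± 10.6 and 102 ± 4.08 CPM (adjusted p = 0.702, edgeR). Ahr was looked at after its values were seen, as the receptor for Cyp1b1: it measured 35.5, 68.4 and 61.6 CPM in control and 47.0, 43.1, 9.13 and 8.48 CPM in OB. OB 3 and OB 4 were low and the groups overlapped (log2 difference -1.03 ± 0.63; adjusted p = 0.347, edgeR). The difference was -0.20 in the C1 and C2 libraries (adjusted p = 0.709, edgeR) and -2.82 in those without a number. Control 3 is the only control in the latter, so no p-value is given there. Whether the sets differ was not tested. Of 7 other Ahr target genes 0 rose and 1 fell, with a median of -0.81. The one that fell was the amino acid transporter Slc7a5, from 183 ± 69.7 to 64.3 ± 26.9 CPM (log2 change -1.51 ± 0.38; adjusted p = 0.0489, edgeR). It lost its call in 7 of 16 alternative fits, among them those without control 2, control 3 or any single OB library, with adjusted p up to 0.118. The quinone reductase Nqo1 measured 168 ± 36.0 and 110 ± 33.8 CPM (adjusted p = 0.174, edgeR).

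Epoxides made by P450 enzymes are opened by epoxide hydrolases. Of 4 such genes 2 were tested and 1 rose. Ephx2, the soluble enzyme that acts on the fatty acid epoxides made by Cyp2j and Cyp2c enzymes, measured 0.192, 0.171 and 0.0794 CPM in control and 3.38, 1.62, 2.27 and 1.37 CPM in OB. The lowest OB library was far above the highest control library, and the log2 change was 3.77 ± 0.47 (SE; adjusted p = 0.00707, edgeR). All control values were under the filter's 0.389 CPM, so Ephx2, like Cyp2f2, entered the test only through the OB libraries. Ephx1, the microsomal enzyme, measured 393 ± 87.9 and 419 ± 71.5 CPM (adjusted p = 0.815, edgeR). The table holds 37 features with Cyp symbols outside the pattern, such as pseudogenes. From a list of 3 P450 genes named otherwise (Cyp51, Ptgis and Tbxas1), 2 were tested and neither passed. Ptgis, the prostacyclin synthase, measured 37.7, 35.1 and 23.6 CPM in control and 59.8, 57.7, 39.9 and 48.6 CPM in OB. Its groups did not overlap, with an adjusted p of 0.0815 (edgeR) and 0.0177 with the replicate block. Cyp51, the sterol demethylase of cholesterol synthesis, measured 248 ± 15.2 and 174 ± 57.8 CPM (adjusted p = 0.238, edgeR).

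**Figure D5:**
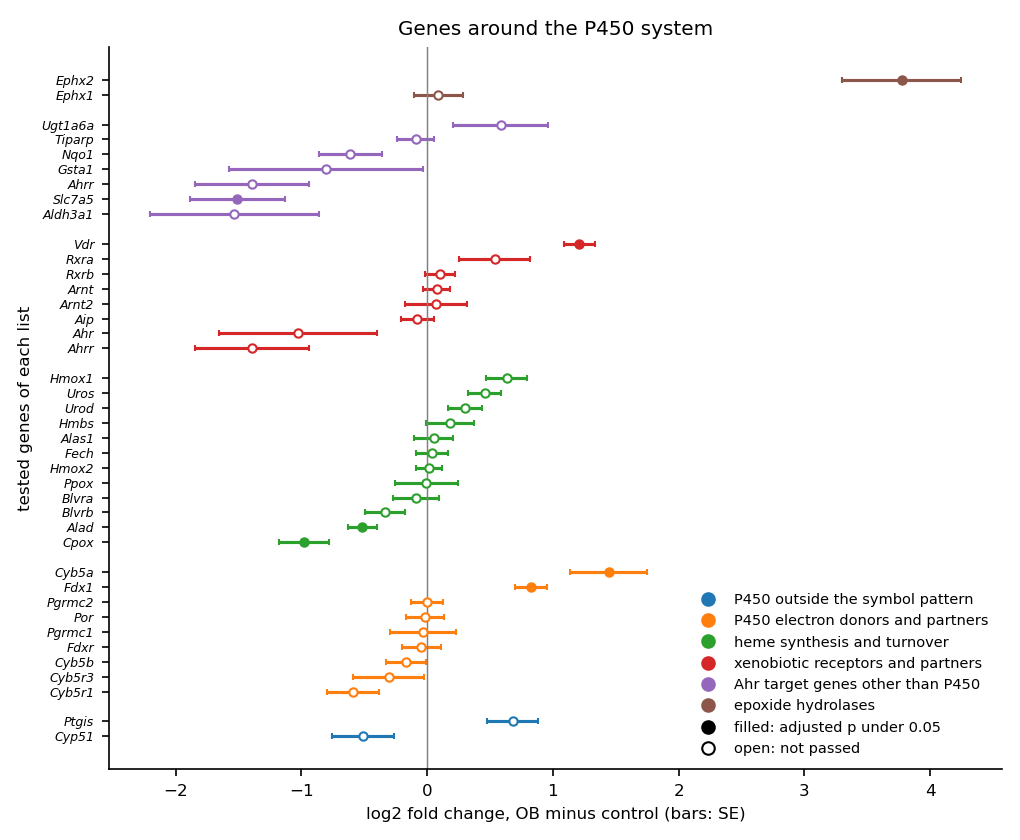
Fitted log2 fold change of OB against control, with its SE as a bar, for the tested genes of each list around the P450 system. Colours mark the lists, filled points the genes that passed the test and open points those that did not. Vdr, Cyb5a, Fdx1 and Ephx2 lie to the right among those that passed, and Cpox, Alad and Slc7a5 to the left.

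The genes whose levels ran most like the members that rose were found from Pearson's r of log2 CPM over the 7 libraries, which share the difference between groups. For Cyp4v3 these were Pdzd11 (r = 0.997), Fst, which encodes the activin antagonist follistatin (0.997), and Adamts2, a procollagen peptidase (0.993). Fst measured 29.0, 33.8 and 15.5 CPM in control and 88.0, 78.1, 90.1 and 72.0 CPM in OB, with control 3 lowest as for Cyp4v3. For Cyp2f2 they were the glutaredoxin gene Glrx (0.991), Ehd2 (0.990) and Asb13 (0.989). Glrx measured 73.4, 74.9 and 61.6 CPM in control and 163, 180.2, 124 and 95.7 CPM in OB, with OB 1 and OB 2 the highest and OB 4 the lowest of the OB libraries, as for Cyp2f2.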

How the data were processed

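RNA sequencing was done on 3 control and 4 OB cultures of C3H10T1/2 cells, from mRNA with a TruSeq kit, version 2, that does not mark strand, per the labels' protocols. The submitters' processing notes name Trimmomatic, HISAT2 and mm10. The deposited values are whole fragment counts per gene, made by featureCounts 1.6.4 with Ensembl 94, per the file headers, without strand and without fragments that map to several places or genes. Columns were tied to samples through the input names in the header. The members and gene lists were chosen with earlier results of these data known.

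Counts were filtered (filterByExpr), scaled by TMM (factors 0.981 to 1.02) and tested with edgeR 4.0.16 in R 4.3.3 by the quasi-likelihood test, without a block, over 15441 genes. The log2 CPM behind the label set differences and the correlations used a prior count of 2. The fitted fold changes used edgeR's default instead, so these kinds of log2 value are not on the same footing. Variation between cultures, as edgeR's common coefficient, came to 26.9%. Libraries of a group differed by more than sampling noise. The labels name the cultures as biological replicates. Same-numbered control and OB cultures deviated together (r = 0.17, 0.52 and 0.40 for numbers 1 to 3), so the replicate number, taken from the titles, was treated as a pairing, with OB 4 alone in its block. The numbers do not match best throughout: OB 1 correlated more with control 2 (0.21), and OB 4 correlated with control 3 (0.27), whose description also lacks a C number. Alternatives were DESeq2 1.42.0, limma 3.58.1, other scalings and filters, blocks, the label sets and leaving out each culture. Simulated counts tested the scripts. Named were all tested members, untested ones with 10 or more counts, in each list up to 4 genes that passed (or the 2 most abundant), and the 3 genes most alike each member that passed. The 123 features without a symbol could not be matched to the rule.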

Additional observations from a re-analysis of the deposited data

Results flagged for a closer look

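Cyp2c23, an epoxygenase of the kidney that was too low to be tested, had 1 library far from the others of its group. It measured 0.752 CPM in OB 2 against 0.122, 0 and 0.083 CPM in OB 1, OB 3 and OB 4, and 0.255, 0.456 and 0.357 CPM in control. The gap was past Dixon's critical value for 4 samples, which chance passes in about 1 in 20 groups.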

How the results depend on the processing

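All log2 values here are fitted differences of OB from control. The members that rose, 2 in the main analysis, numbered 4 with the replicate block, 3 by DESeq2 and 3 by limma-voom, 7 with a block for the label sets, 9 among the libraries without a C number, and 0 to 2 when a culture was left out. The 0 came without OB 1. No member fell under any alternative. Members counted as expressed numbered 17, or 29 with 10 or more counts and 15 with 1 CPM in 3 libraries. Over all genes, 667 rose and 574 fell. DESeq2 gave 1292 and 1128, limma-voom 1247 and 1081, the label set block 1433 and 1256, the unnumbered libraries 3052 and 3413, and C1 with C2 gave 1030 higher. Leaving out 1 culture gave 190 to 575 higher and 104 to 703 lower.

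Some differences changed sign, none past the threshold. Cyp1b1 was -0.32 by limma-voom, -0.23 in the unnumbered libraries and -0.28 to 0.27 when a culture was left out (below 0 without control 1, control 3 or OB 2). Cyp4f16 was 0.089 in the unnumbered libraries. Cyp2s1 was -0.54 in C1 with C2 and -0.12 to 0.73 with a culture left out (below 0 without control 3). Cyp2j12 was -0.22 by limma-voom and -0.22 to 1.33 with a culture left out (below 0 without OB 2). Por was 0.057 with the replicate block, 0.12 in C1 with C2 and -0.16 to 0.072 with a culture left out (above 0 without OB 2 or OB 4). Arnt was -0.011 in C1 with C2 and -0.016 to 0.13 with a culture left out, and Ephx1 was -0.12 by limma-voom and -0.092 to 0.19 with a culture left out (both below 0 without control 3). The cause was not tested. Vdr and Ephx2 passed under all 16 alternatives, with adjusted p up to 0.0177 and 0.0353 (edgeR, DESeq2 or limma). Among these is the fit on the unnumbered libraries, which has control 3 as its only control. The replicate block changed no other call on a named gene than those given with the results. The label set block also called Rxra (adjusted p = 0.0274, edgeR) and Ptgis (0.00785). Of the 12 untested members with 10 or more counts, none passed in an edgeR fit without the filter. Ephx2 entered the filtered tests through its OB level alone.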
